A study of Mus musculus with 15 samples.

Results

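The 9 genes described here carry the glucocorticoid signal in a cell, from its receptors and the enzymes that set its local supply to the genes it switches on. They were chosen by symbol from a table of 32939 genes: the receptors Nr3c1 and Nr3c2, the enzymes Hsd11b1 and Hsd11b2, and the target genes Tsc22d3, Fkbp5, Zbtb16, Klf9 and Dusp1. All 9 were found and all 9 passed the filter on low counts. RNA was sequenced from mouse colonic crypts, the pits of the colon lining that hold its stem cells, in 15 libraries. The 5 FL-shAlpl libraries came from wild-type mice with a fatty liver on a CDAA diet and AAV-shAlpl, an adeno-associated virus that carries a short hairpin RNA against Alpl, the gene of tissue-nonspecific alkaline phosphatase. The 5 FL-shGFP libraries had the same CDAA diet and fatty liver with the control hairpin AAV-shGFP, and the 5 NL-shGFP libraries had a normal diet, a normal liver and AAV-shGFP. All 3 groups therefore received a virus. Diet and liver state changed together, so their parts cannot be told apart, and no normal liver group with AAV-shAlpl was analysed here. The labels gave neither the promoter and cell type that the virus used nor the age, sex or number of mice.

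Glucocorticoids are steroid hormones of the adrenal cortex, and the gut epithelium can also make them locally. They bind the glucocorticoid receptor, encoded by Nr3c1, or the mineralocorticoid receptor, encoded by Nr3c2, which otherwise binds aldosterone and drives sodium uptake in the colon. The dehydrogenase encoded by Hsd11b2 inactivates glucocorticoids and so keeps them off the mineralocorticoid receptor, and that of Hsd11b1 reactivates them. A bound receptor leaves its chaperone complex, enters the nucleus and raises target genes such as Tsc22d3 and Fkbp5, whose product feeds back on the receptor.

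RefSeq promoters (build GRCm38.p6, 250 bases before each start site) were used for 6 of the 9 genes, with 8 windows in all since Tsc22d3 has 3 start sites. They are shown for 3 target genes whose RNA was highest in FL-shGFP, to show which of the searched motifs stand there. Capitals mark a motif found by a search of both strands. For Tsc22d3 it is the receptor half-site AGAACA, read here on the other strand, and for Dusp1 it is TGACGTCA, the cyclic AMP response element. No motif searched was found in the Fkbp5 window.
Tsc22d3, start site 3 (chrX:140600523-140600772, minus strand): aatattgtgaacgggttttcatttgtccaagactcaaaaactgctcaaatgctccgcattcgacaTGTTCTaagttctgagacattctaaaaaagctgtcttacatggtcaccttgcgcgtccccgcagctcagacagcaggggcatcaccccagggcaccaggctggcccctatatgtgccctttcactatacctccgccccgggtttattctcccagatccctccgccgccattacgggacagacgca
Dusp1 (chr17:26508473-26508722, minus strand): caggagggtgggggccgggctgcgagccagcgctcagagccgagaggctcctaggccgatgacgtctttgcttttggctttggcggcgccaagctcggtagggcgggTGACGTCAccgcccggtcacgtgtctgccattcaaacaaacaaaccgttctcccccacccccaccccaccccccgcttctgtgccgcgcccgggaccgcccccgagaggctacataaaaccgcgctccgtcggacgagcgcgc
Fkbp5 (chr17:28486150-28486399, minus strand): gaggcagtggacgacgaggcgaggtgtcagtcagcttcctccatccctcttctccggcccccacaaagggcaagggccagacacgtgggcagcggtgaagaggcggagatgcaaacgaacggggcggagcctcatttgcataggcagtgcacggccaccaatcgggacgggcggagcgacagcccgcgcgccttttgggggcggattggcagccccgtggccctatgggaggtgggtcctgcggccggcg
The Tsc22d3 match began 185 bases before the start site and the Dusp1 match 143 bases before it. The whole receptor palindrome, AGAACA followed by any 3 bases and TGTTCT, which contains the half-site, was in 0 of the 8 windows and in 3 of 32851 promoters of the same length (0.00913%). The half-site was in 16.1% of those promoters, TGACGTCA in 1.55% and TATAAA in 12.4%. The windows of Klf9, Hsd11b1 and Nr3c2 and the other Tsc22d3 start sites held none of these motifs. A match is a run of letters and does not show binding. Zbtb16, Hsd11b2 and Nr3c1 are named here without a window.

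The libraries held 42.1 M to 58.6 M counts in FL-shAlpl, 37.5 M to 51.7 M in FL-shGFP and 33.3 M to 41.4 M in NL-shGFP. Alpl, the target of the hairpin, had 0 to 6 counts per library in FL-shAlpl, 14 to 25 in FL-shGFP and 0 to 2 in NL-shGFP. Mitochondrially encoded genes took 14.8% to 24.3% of the counts in FL-shAlpl, 13.7% to 21.5% in FL-shGFP and 28.0% to 37.5% in NL-shGFP. All 10 defining genes of colon epithelium were detected in every library. NL-shGFP replicates 3 and 4 were closer to each other than other pairs, with a median chi-square per gene of 0.718, where 0.455 would be sampling noise alone. They were kept as separate libraries. Levels are counts per M counts of the library (CPM) with TMM scaling of library size, and ± beside a level is the SD over 5 libraries. Fold changes are on the log2 scale from edgeR, with ± for their standard error. The 9 genes were proposed with the fold changes of these same comparisons in view, so their values are a description and carry no test.

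Both receptor genes were higher in FL-shGFP crypts than in NL-shGFP crypts. Nr3c1 rose by less than each of the target genes. The log2 fold change of Nr3c2 (0.95 ± 0.26) was close to those of Klf9 (0.94 ± 0.18) and Tsc22d3 (0.98 ± 0.20), and below those of Fkbp5, Dusp1 and Zbtb16. Nr3c1 had 78.1, 82.4, 92.0, 60.5 and 77.8 CPM in FL-shAlpl replicates 1 to 5, 89.7, 84.3, 90.7, 88.1 and 74.7 CPM in FL-shGFP, and 78.5, 68.3, 64.8, 66.5 and 65.3 CPM in NL-shGFP. In 4 of 5 FL-shGFP libraries the level was above every NL-shGFP library, and NL-shGFP replicate 1 stood apart from the rest of its group. The log2 fold change was 0.32 ± 0.10 for FL-shGFP against NL-shGFP, -0.13 ± 0.10 for FL-shAlpl against FL-shGFP and 0.19 ± 0.10 for FL-shAlpl against NL-shGFP. Its levels spanned 0.605 on the log2 scale over the 15 libraries, the narrowest range of the 9 genes. The first of these values no longer passed the threshold of an adjusted p of 0.05 without NL-shGFP replicate 3 (0.29), with no filter on low counts (0.29) or with NL-shGFP replicates 1 and 2, and 3 and 4, summed (0.32).

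Nr3c2 had 50.8, 106, 75.9, 50.3 and 96.7 CPM in FL-shAlpl, 115, 107, 60.5, 132 and 51.9 CPM in FL-shGFP, and 52.6, 53.7, 45.3, 46.8 and 43.3 CPM in NL-shGFP. Both fatty liver groups were spread widely, FL-shGFP replicates 3 and 5 and FL-shAlpl replicates 1 and 4 lying close to the NL-shGFP levels and the other 6 well above them. Its log2 fold change was 0.95 ± 0.26 for FL-shGFP against NL-shGFP, -0.29 ± 0.26 for FL-shAlpl against FL-shGFP and 0.65 ± 0.26 for FL-shAlpl against NL-shGFP. The last value passed the threshold with library totals alone (0.77), with the 2 groups compared fitted alone (0.65) and on log2 FPKM. Nr3c2 overlaps the antisense gene Gm10649 in the GENCODE M21 annotation, and reads of such partners cannot be told apart here because the strand setting of the counts is not known. Surface colonocytes express Nr3c2 and Hsd11b2, and 7 of 7 surface colonocyte markers were detected in every library. Their summed level was 1361 to 3578 CPM in FL-shAlpl, 3654 to 10094 CPM in FL-shGFP and 763 to 2157 CPM in NL-shGFP, and its part in these results was not tested. In bulk RNA, fewer cells of a type and less RNA per cell cannot be told apart.

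**Figure D1:**
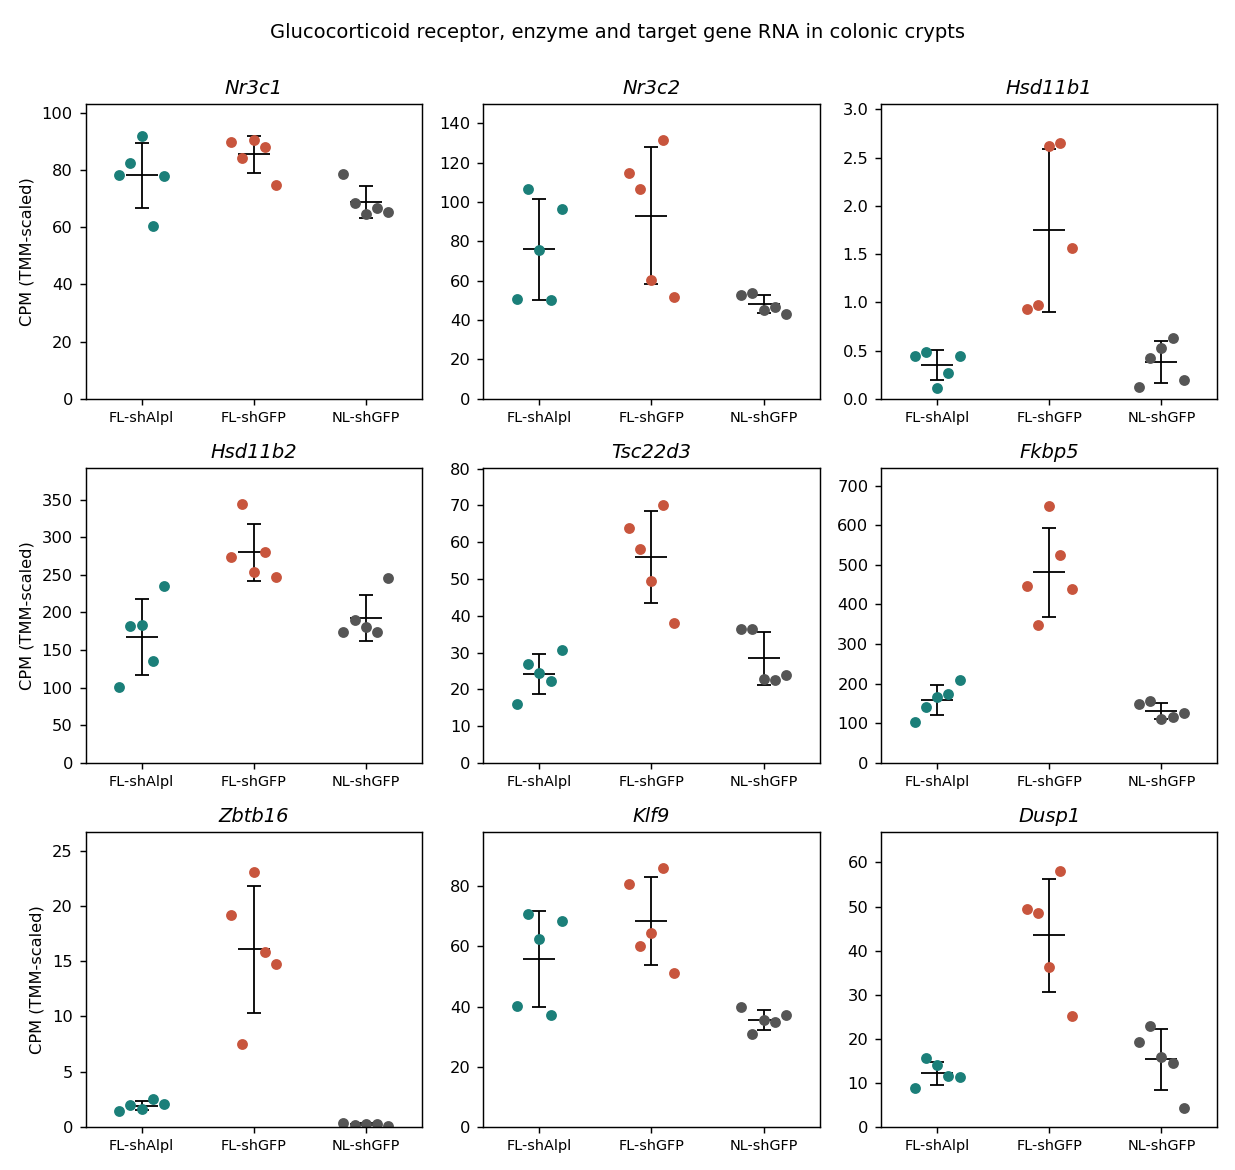
RNA of the 9 genes in each library. The y axis of each panel is the TMM-scaled level in CPM, each point is 1 library (replicates 1 to 5 from left to right in a group), and bars are the mean and SD of 5 libraries. Fkbp5, Tsc22d3, Zbtb16, Dusp1, Hsd11b1 and Hsd11b2 had all 5 FL-shGFP libraries above every library of both other groups.

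RNA of both enzymes that set the local glucocorticoid supply was higher in FL-shGFP than in either other group, although their RNA levels differ by orders of magnitude. Hsd11b2 had 101, 182, 183, 136 and 235 CPM in FL-shAlpl, 273, 344, 254, 280 and 247 CPM in FL-shGFP, and 174, 190, 180, 174 and 245 CPM in NL-shGFP. Every FL-shGFP library was above every other library, though FL-shGFP replicate 5 was only just above NL-shGFP replicate 5, which stood apart from its group. On the log2 scale the difference was 0.54 ± 0.18 for FL-shGFP against NL-shGFP, -0.74 ± 0.18 for FL-shAlpl against FL-shGFP and -0.20 ± 0.18 for FL-shAlpl against NL-shGFP. The first of these no longer passed the threshold without NL-shGFP replicate 1 (0.50), NL-shGFP replicate 3 (0.51), NL-shGFP replicate 4 (0.50) or FL-shGFP replicate 2 (0.45), nor with NL-shGFP replicates 3 and 4 summed (0.51) or replicates 1 and 2 summed as well (0.46).

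Hsd11b1 was scarce, with 26, 28, 6, 13 and 18 counts in FL-shAlpl replicates 1 to 5, 43, 48, 130, 89 and 83 counts in FL-shGFP, and 4, 17, 16, 24 and 7 counts in NL-shGFP. The lowest FL-shGFP library, at 0.927 CPM, was above the highest of the others, at 0.636 CPM in NL-shGFP, while the FL-shAlpl and NL-shGFP libraries overlapped throughout. As log2 fold changes these were 2.18 ± 0.49 for FL-shGFP against NL-shGFP and -2.30 ± 0.48 for FL-shAlpl against FL-shGFP. Small counts in this table are mostly even, so that a sequenced fragment seems to enter as 2 counts and these values rest on fewer molecules than they show. For FL-shAlpl against NL-shGFP the value was -0.12 ± 0.49, and its sign changed under several settings, for example to 0.15 without NL-shGFP replicate 4 and to 0.11 without FL-shAlpl replicate 3.

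Summed markers of several cell types other than epithelium were also highest on average in FL-shGFP, and each list had all its markers above 0 in at least 1 library. Summed neutrophil markers were 95.8 to 253 CPM in FL-shAlpl, 850 to 1439 CPM in FL-shGFP and 51.6 to 210 CPM in NL-shGFP, with 5 of 5 detected in every library. Ly6g carried most of that sum in FL-shGFP (119.7, 641 and 37.3 CPM on average in FL-shAlpl, FL-shGFP and NL-shGFP), while Csf3r, a neutrophil receptor gene, was not highest there (7.82, 11.2 and 14.2 CPM). Summed T and NK cell markers were 6.41 to 13.5 CPM in FL-shAlpl, 43.2 to 127 CPM in FL-shGFP and 7.76 to 27.4 CPM in NL-shGFP, with 8 of 8 detected in every library. Myeloid cell markers overlapped between the groups, at 117 to 324 CPM in FL-shAlpl, 219 to 573 CPM in FL-shGFP and 134 to 284 CPM in NL-shGFP, with 7 of 7 detected in every library. Fibroblast markers overlapped too, at 22.6 to 308 CPM in FL-shAlpl, 57.7 to 345 CPM in FL-shGFP and 13.5 to 61.9 CPM in NL-shGFP, with 7 of 7 detected in every library. Hsd11b1 is known from stromal and myeloid cells, and Zbtb16 from innate-like T cells as well as from hormone-treated tissue. The part of these cells in the values of either gene was not tested.

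Among the target genes, Fkbp5 had the highest level and Zbtb16 the widest range. Fkbp5, which encodes the co-chaperone FKBP51 that lowers hormone binding by the receptor, had 104, 141, 167, 174 and 208 CPM in FL-shAlpl, 447, 348, 649, 525 and 440 CPM in FL-shGFP, and 149, 156, 111, 117 and 126 CPM in NL-shGFP. The FL-shGFP libraries stood clear of all others, and the FL-shAlpl and NL-shGFP libraries overlapped. In log2 terms the difference was 1.87 ± 0.19 for FL-shGFP against NL-shGFP, -1.60 ± 0.19 for FL-shAlpl against FL-shGFP and 0.27 ± 0.19 for FL-shAlpl against NL-shGFP.

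Zbtb16, which encodes the zinc finger transcription factor PLZF, had 1.43, 1.97, 1.57, 2.54 and 2.08 CPM in FL-shAlpl, 19.1, 7.54, 23.1, 15.8 and 14.7 CPM in FL-shGFP, and 0.300, 0.199, 0.294, 0.265 and 0.0569 CPM in NL-shGFP. The 3 groups did not overlap, and unlike the other 8 genes Zbtb16 had FL-shAlpl libraries all above NL-shGFP and all below FL-shGFP. It was 71.6-fold higher in FL-shGFP than in NL-shGFP (6.16 ± 0.38), 8.37-fold lower in FL-shAlpl than in FL-shGFP (-3.07 ± 0.31) and in FL-shAlpl 8.56-fold higher than in NL-shGFP (3.10 ± 0.36). The NL-shGFP levels rest on 2 to 10 counts per library, so the size of these folds is uncertain, and on log2(FPKM + 1) and log2(FPKM + 0.1) the difference of FL-shGFP from NL-shGFP was 1.90 and 4.40. The lowest FL-shGFP library, replicate 2, still held more than the highest FL-shAlpl library, replicate 4.

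Tsc22d3, which encodes the anti-inflammatory leucine zipper protein GILZ, had 16.1, 26.8, 24.3, 22.3 and 30.7 CPM in FL-shAlpl, 63.9, 58.2, 49.4, 70.1 and 38.1 CPM in FL-shGFP, and 36.3, 36.4, 22.7, 22.6 and 23.9 CPM in NL-shGFP. All FL-shGFP libraries were above the others, replicate 5 by little, since it was close to NL-shGFP replicates 1 and 2. Log2 fold changes were 0.98 ± 0.20 for FL-shGFP against NL-shGFP, -1.22 ± 0.20 for FL-shAlpl against FL-shGFP and -0.24 ± 0.20 for FL-shAlpl against NL-shGFP.

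Dusp1, whose product is a phosphatase that switches off stress-activated MAP kinases, had 8.83, 15.5, 14.0, 11.4 and 11.2 CPM in FL-shAlpl, 49.3, 48.5, 36.3, 58.0 and 25.1 CPM in FL-shGFP, and 19.2, 22.8, 15.8, 14.5 and 4.27 CPM in NL-shGFP. FL-shGFP was highest throughout, with its replicate 5 nearest to NL-shGFP, and NL-shGFP replicate 5 was the lowest library of all. The difference on the log2 scale was 1.51 ± 0.34 for FL-shGFP against NL-shGFP, -1.83 ± 0.34 for FL-shAlpl against FL-shGFP and -0.33 ± 0.33 for FL-shAlpl against NL-shGFP. Dusp1 overlaps the antisense gene Ergic1 in the annotation, with the same limit as for Nr3c2.

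Klf9, a Krüppel-like transcription factor gene that glucocorticoids and thyroid hormone induce, had 40.2, 70.7, 62.3, 37.2 and 68.5 CPM in FL-shAlpl, 80.7, 60.1, 64.5, 86.3 and 51.2 CPM in FL-shGFP, and 39.8, 30.8, 35.5, 35.0 and 37.2 CPM in NL-shGFP. All FL-shGFP libraries and 4 of 5 FL-shAlpl libraries were above NL-shGFP, and the 2 fatty liver groups overlapped. Its fold changes on the log2 scale were 0.94 ± 0.18 for FL-shGFP against NL-shGFP, -0.30 ± 0.18 for FL-shAlpl against FL-shGFP and 0.65 ± 0.18 for FL-shAlpl against NL-shGFP. The last value lost its call without any 1 of NL-shGFP replicate 2 (0.60), NL-shGFP replicate 3 (0.64), NL-shGFP replicate 4 (0.64), FL-shAlpl replicate 2 (0.52), FL-shAlpl replicate 3 (0.60) or FL-shAlpl replicate 5 (0.56), with NL-shGFP replicates 3 and 4 summed (0.64), and with replicates 1 and 2 summed as well (0.64). FL-shAlpl replicates 1 and 4 had the 2 lowest levels of their group for Klf9, Nr3c2, Hsd11b2 and Tsc22d3. This was not so for Nr3c1, Hsd11b1, Fkbp5, Zbtb16 or Dusp1.

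Set side by side, 9 of 9 genes passed an adjusted p of 0.05 as higher in FL-shGFP than in NL-shGFP, where 25.1% of the 17404 genes tested were higher and 21.6% lower (46.7% in all). In 7 of the 9 the groups did not overlap, against 18.1% of the genes tested. In FL-shAlpl against FL-shGFP, 6 of 9 passed as lower, where 17.9% of genes were lower (36.0% in either direction), and the same 6 had groups that did not overlap (9.29% of genes). Nr3c1, Nr3c2 and Klf9 were the other 3. In FL-shAlpl against NL-shGFP, Zbtb16 and Klf9 passed as higher, where 9.31% of genes were higher and 8.12% lower (17.4% in all), and only Zbtb16 had no overlap (7.54% of genes). The median log2 fold change of the 9 genes was 0.98, -1.22 and 0.19 in these 3 comparisons, and that of all genes tested was -0.00162, -0.00371 and 0.05. Since these comparisons chose the genes, nothing is read from the shares, and the first 2 comparisons share the FL-shGFP libraries. Scaling by library totals alone moved the median of all genes by 0.14 in FL-shAlpl against NL-shGFP and by 0.08 or less in the others. With totals alone, 65.8% of the genes called in FL-shGFP against NL-shGFP were higher, against 53.8% with TMM, and in FL-shAlpl against NL-shGFP the shares were 75.0% and 53.4%.

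**Figure D2:**
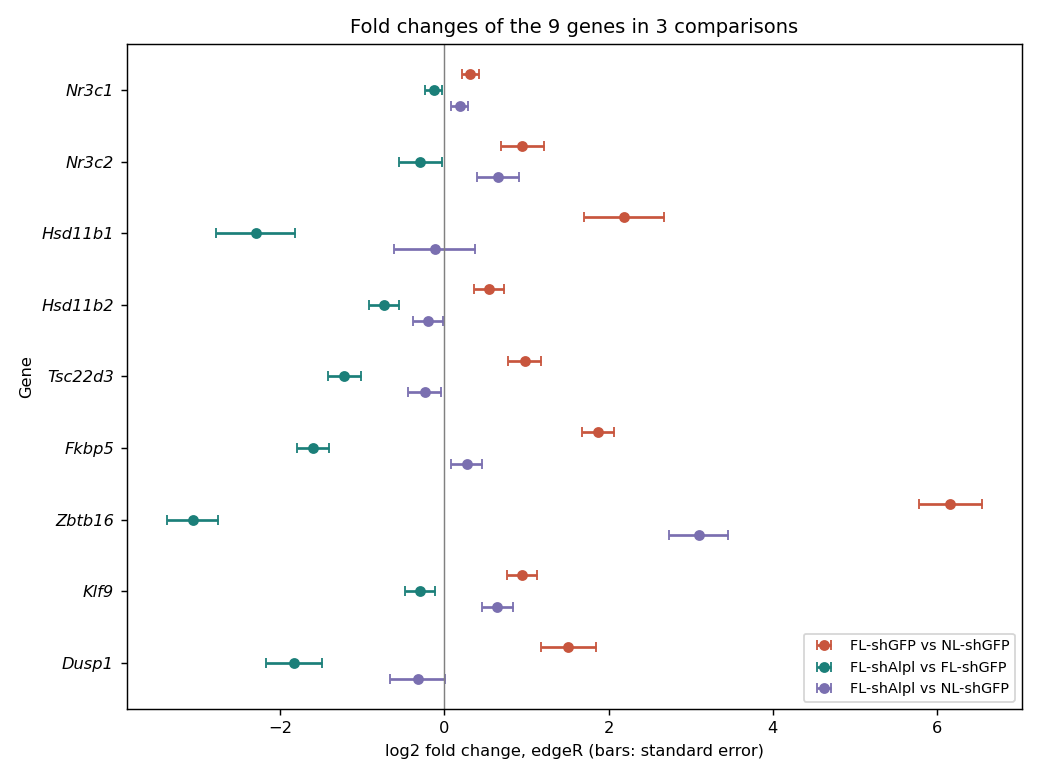
Log2 fold changes of the 9 genes in the 3 comparisons, with bars for the standard error from edgeR (n = 5 libraries per group). The values for FL-shGFP against NL-shGFP run from 0.32 (Nr3c1) to 6.16 (Zbtb16), and those for FL-shAlpl against FL-shGFP from -3.07 (Zbtb16) to -0.13 (Nr3c1).

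Levels can be compared between genes only per length, and for that the deposited FPKM values were used, which are scaled by library totals. Hsd11b2 was the highest of the 9 in every group, at 60.9 to 123 FPKM in FL-shAlpl, 137 to 178 FPKM in FL-shGFP and 86.5 to 141 FPKM in NL-shGFP. Fkbp5 had the second highest mean, though its range overlapped those of Nr3c2, Klf9 and Nr3c1 in FL-shAlpl, at 17.6 ± 3.95 FPKM in FL-shAlpl, 50.7 ± 13.3 FPKM in FL-shGFP and 13.4 ± 2.36 FPKM in NL-shGFP. Hsd11b1 and Zbtb16 were the lowest in each group, with Zbtb16 below Hsd11b1 in NL-shGFP (0.0397 ± 0.0171 and 0.0842 ± 0.0451 FPKM, overlapping ranges) and above it in both fatty liver groups (3.04 ± 1.17 and 0.408 ± 0.196 FPKM in FL-shGFP). Between these, the libraries held 2.95 to 16.2 FPKM of Klf9, Nr3c2, Nr3c1, Dusp1 and Tsc22d3 in FL-shAlpl, 8.41 to 18.2 FPKM in FL-shGFP and 1.36 to 9.74 FPKM in NL-shGFP. In FL-shGFP the ranges of these 5 genes overlapped, so that their order there lies within the spread between libraries.

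**Figure D3:**
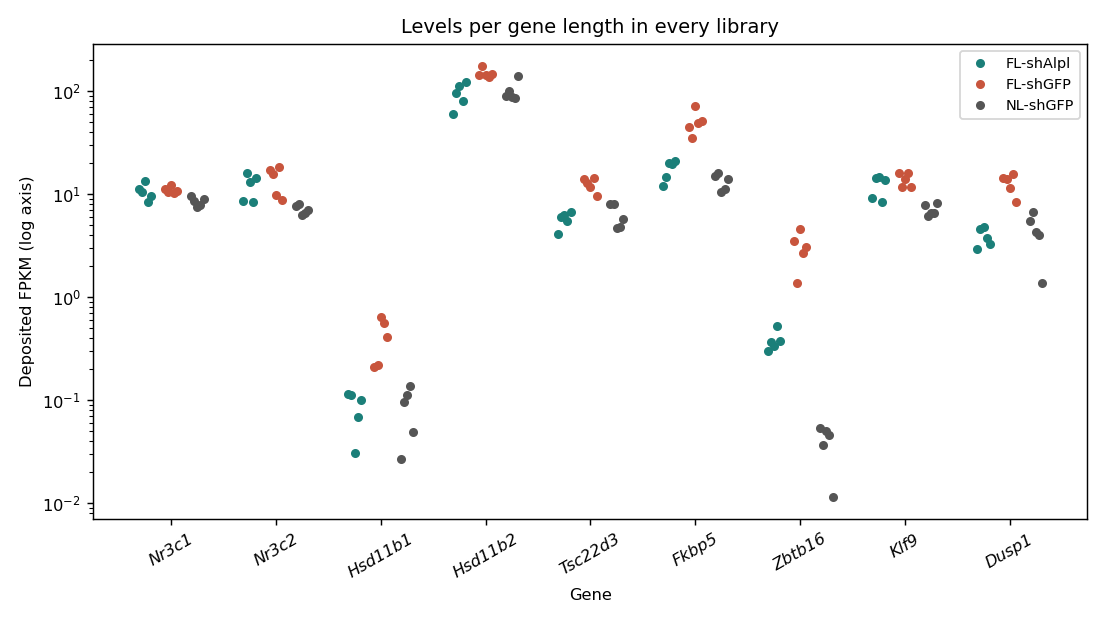
Deposited FPKM of the 9 genes on a log axis, with 1 point per library and the groups side by side within each gene. Hsd11b2 is highest in each group, and Zbtb16 runs from 0.0114 FPKM in NL-shGFP to 4.56 FPKM in FL-shGFP.

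Ratios of FPKM within a library do not depend on its depth. Fkbp5 over Nr3c1, a target over its receptor, was 1.08 to 2.34 in FL-shAlpl, 3.35 to 5.81 in FL-shGFP and 1.39 to 1.85 in NL-shGFP, so the target moved more than the receptor. Nr3c1 over Nr3c2 was 0.652 to 1.30 in FL-shAlpl, 0.564 to 1.26 in FL-shGFP and 1.07 to 1.27 in NL-shGFP, with FL-shGFP replicates 1, 2 and 4 and FL-shAlpl replicates 2 and 5 at the low end. Hsd11b2 exceeded Hsd11b1 by 530-fold to 3721-fold in FL-shAlpl, 224-fold to 816-fold in FL-shGFP and 632-fold to 3346-fold in NL-shGFP. RNA of the inactivating enzyme was therefore the more abundant by far in every library, and the ranges of FL-shGFP and the other groups overlapped. The size of the ratio rests on the few counts of Hsd11b1, and enzyme protein and activity were not measured.

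A wider list held 33 genes known to be induced by glucocorticoids in other tissues, of which 30 could be tested. Most of its tested members were higher in FL-shGFP than in NL-shGFP, and most were lower in FL-shAlpl than in FL-shGFP. This list and the lists below were chosen with earlier results of these data known. The members named were mostly picked by their p-values or after their values were seen. Counts and p-values of the lists are therefore a description and give no independent test of the pattern. In FL-shGFP against NL-shGFP, 24 rose, 3 fell and 3 did not pass (median 1.25), where 25.1% of all genes were higher and 21.6% lower. In FL-shAlpl against FL-shGFP, 22 fell, 2 rose and 6 did not pass (median -1.08), where 17.9% of all genes were lower. In FL-shAlpl against NL-shGFP, 8 rose, 2 fell and 20 did not pass (median 0.40), where 9.31% of all genes were higher and 8.12% lower. The 8 became 13 with library totals alone, 5 without any 1 of NL-shGFP replicates 2, 3 and 4, 4 without FL-shAlpl replicate 2 or 5, 5 with NL-shGFP replicates 3 and 4 summed, and 3 with NL-shGFP replicates 1 and 2 summed as well.

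Sgk1, the kinase that keeps the epithelial sodium channel at the cell surface and a target of both receptors, had 21.7, 85.7, 101, 59.6 and 86.0 CPM in FL-shAlpl, 432, 323, 566, 748 and 368 CPM in FL-shGFP, and 44.3, 43.2, 41.3, 40.4 and 41.4 CPM in NL-shGFP. The FL-shGFP libraries were far above the rest, and the NL-shGFP libraries were nearly equal. Sgk1 rose by 3.53 ± 0.34 in FL-shGFP against NL-shGFP (edgeR adjusted p = 9.53e-06) and fell by 2.78 ± 0.33 in FL-shAlpl against FL-shGFP (edgeR adjusted p = 9.64e-05). In FL-shAlpl against NL-shGFP it did not pass (0.75, edgeR adjusted p = 0.112).

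Tat, the tyrosine aminotransferase gene that is a classic glucocorticoid target in liver, had 31.5 to 58.5 CPM in FL-shAlpl, 114 to 212 CPM in FL-shGFP and 22.1 to 40.9 CPM in NL-shGFP. It rose by 2.46 ± 0.22 in FL-shGFP against NL-shGFP (edgeR adjusted p = 4.06e-06) and fell by 1.99 ± 0.21 in FL-shAlpl against FL-shGFP (edgeR adjusted p = 4.81e-05), with no overlap in either comparison. Angptl4, which encodes an inhibitor of lipoprotein lipase, rose by 6.46 ± 0.50 (edgeR adjusted p = 1.68e-06) and fell by 4.73 ± 0.44 (edgeR adjusted p = 2.34e-05) in the same 2 comparisons. Txnip, whose product limits glucose uptake, rose by 1.92 ± 0.19 (edgeR adjusted p = 9.05e-06) and fell by 1.27 ± 0.19 (edgeR adjusted p = 0.00029). Several of these genes also answer to other signals, among them fatty acids for Angptl4 and glucose for Txnip. The 3 that fell in FL-shGFP against NL-shGFP were Rgcc, Cebpb and Lpin1, of which 1 was left without replicate 1 of NL-shGFP or replicate 2 or 3 of FL-shGFP. Rgcc, a cell cycle regulator gene, fell by 3.32 ± 0.40 in FL-shGFP against NL-shGFP (edgeR adjusted p = 2.73e-05) and rose by 2.49 ± 0.39 in FL-shAlpl against FL-shGFP (edgeR adjusted p = 0.000387). Glul, the glutamine synthetase gene, did not pass in the first comparison (0.28, edgeR adjusted p = 0.283) and rose by 0.72 ± 0.21 in the second (edgeR adjusted p = 0.0166). Pck1, the gluconeogenic enzyme gene, passed in none of the 3.

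**Figure D4:**
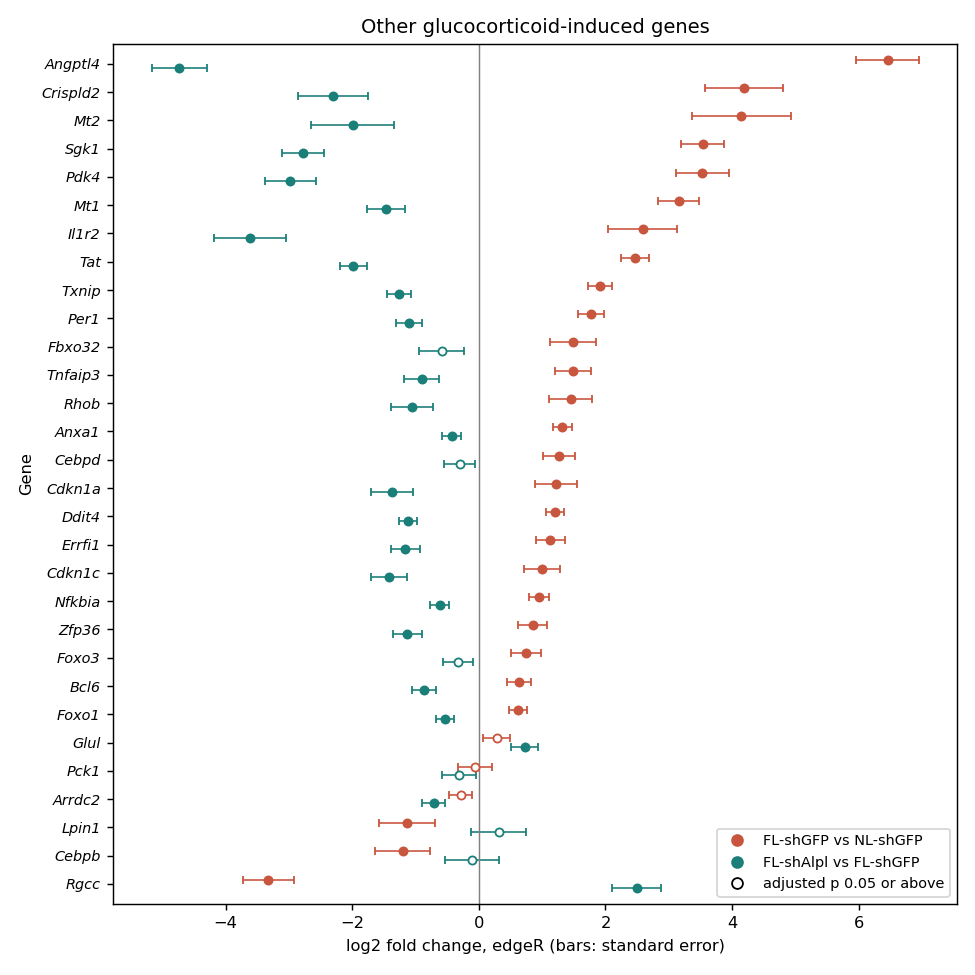
Log2 fold changes of the 30 tested genes of the wider glucocorticoid-induced list, in the comparisons of FL-shGFP with NL-shGFP and of FL-shAlpl with FL-shGFP, with bars for the standard error from edgeR (n = 5 libraries per group). Filled points passed an adjusted p of 0.05. Values run from 6.46 for Angptl4 to -3.32 for Rgcc in FL-shGFP against NL-shGFP, and 24 points there are filled on the right and 3 on the left.

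Most of the chaperones that hold the receptor ready for hormone ran the opposite way to Fkbp5. Of 15, 12 fell, 0 rose and 3 did not pass in FL-shGFP against NL-shGFP (median -0.99), and 9 rose, 0 fell and 6 did not pass in FL-shAlpl against FL-shGFP (median 0.70). Fkbp4, which encodes FKBP52, the co-chaperone that competes with FKBP51 for the receptor complex, had 396, 213, 306, 420 and 227 CPM in FL-shAlpl, 106, 127, 146, 62.7 and 174 CPM in FL-shGFP, and 327, 342, 351, 348 and 414 CPM in NL-shGFP. All FL-shGFP libraries were below every other library. Fkbp4 fell by 1.53 ± 0.24 in FL-shGFP against NL-shGFP (edgeR adjusted p = 0.000202) and rose by 1.34 ± 0.24 in FL-shAlpl against FL-shGFP (edgeR adjusted p = 0.00103). Hsp90aa1, the inducible HSP90 gene, fell by 1.52 ± 0.19 (edgeR adjusted p = 3.71e-05) and rose by 1.04 ± 0.19 (edgeR adjusted p = 0.00108) in the same comparisons. Hspa1a and Hspa1b, near-identical HSP70 genes whose reads may be split between them, fell in FL-shGFP against NL-shGFP (-3.14 ± 0.59 and -2.85 ± 0.49, edgeR adjusted p = 0.000821 and 0.000412) and did not pass in FL-shAlpl against FL-shGFP (edgeR adjusted p = 0.4 and 0.592). In FL-shAlpl against NL-shGFP, 3 of 15 fell, 0 rose and 12 did not pass, where 8.12% of all genes were lower and 9.31% higher. The 3 became 6 without FL-shAlpl replicate 1. Summed crypt base stem cell markers were also lowest on average in FL-shGFP, at 86.6 CPM in FL-shAlpl, 41.9 CPM in FL-shGFP and 172 CPM in NL-shGFP. The part of these cells in the chaperone values was not tested.

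**Figure D5:**
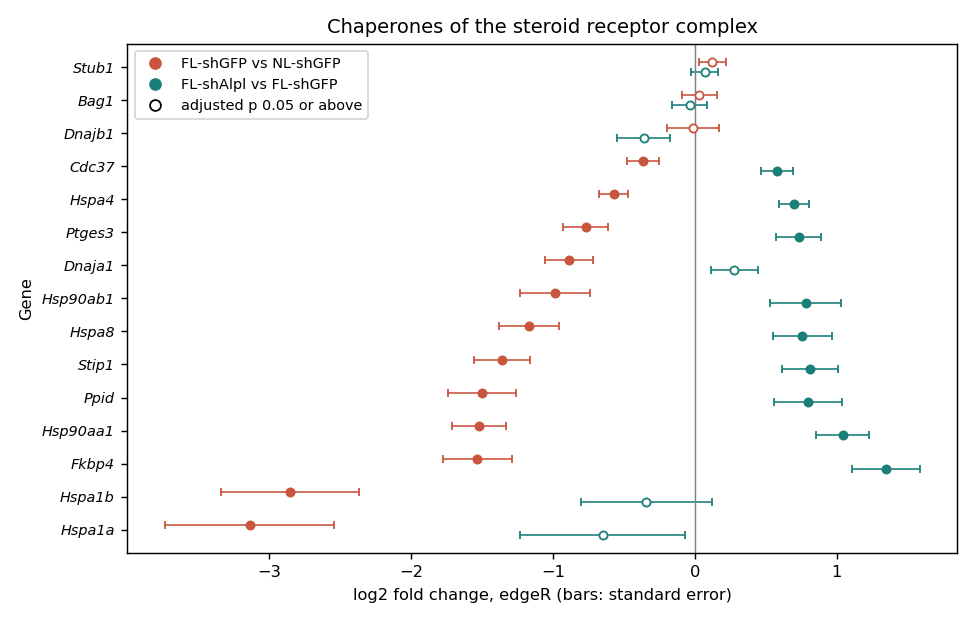
Log2 fold changes of 15 chaperones of the steroid receptor complex in the comparisons of FL-shGFP with NL-shGFP and of FL-shAlpl with FL-shGFP, with bars for the standard error from edgeR (n = 5 libraries per group). Filled points passed an adjusted p of 0.05, and 12 of them lie left of 0 in the first comparison and 9 right of 0 in the second.

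Receptor coregulators, which pass the signal on to chromatin, moved in both directions. Of 14, 6 rose, 2 fell and 6 did not pass in FL-shGFP against NL-shGFP (median 0.07), where 25.1% of all genes were higher and 21.6% lower. Ep300, a histone acetyltransferase gene, rose by 0.41 ± 0.08 (edgeR adjusted p = 0.000934), and Ppargc1a, the coactivator gene of mitochondrial biogenesis, rose by 1.02 ± 0.25 (edgeR adjusted p = 0.00431). Smarca4, the chromatin remodelling ATPase gene, fell by 0.45 ± 0.14 (edgeR adjusted p = 0.0169), and the 2 that fell became 0 with library totals alone and 1 without any 1 of NL-shGFP replicates 2, 3, 4 and 5 and FL-shGFP replicates 1 and 4. In FL-shAlpl against FL-shGFP, 3 rose, 1 fell and 10 did not pass, and the 3 became 0 without any 1 of FL-shGFP replicates 1, 2 and 4 and FL-shAlpl replicates 1 and 4.

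Of 17 genes of steroid synthesis and handling, 9 could be tested, and in FL-shGFP against NL-shGFP 6 rose, 1 fell and 2 did not pass (median 0.77). In FL-shAlpl against FL-shGFP 4 fell, 2 rose and 3 did not pass (median -0.23). The 4 became 6 with NL-shGFP replicates 3 and 4 summed and 7 with replicates 1 and 2 summed as well, and the 2 became 1 without FL-shAlpl replicate 2. H6pd, which supplies the cofactor that makes the Hsd11b1 enzyme run towards active hormone, averaged 43.9 ± 7.24 CPM in FL-shAlpl, 82.7 ± 13.9 CPM in FL-shGFP and 45.1 ± 5.07 CPM in NL-shGFP. H6pd rose by 0.87 ± 0.13 in FL-shGFP against NL-shGFP (edgeR adjusted p = 0.000138) and fell by 0.92 ± 0.13 in FL-shAlpl against FL-shGFP (edgeR adjusted p = 0.000242). Srd5a2, a steroid 5-alpha-reductase gene, rose by 2.37 ± 0.29 (edgeR adjusted p = 2.97e-05) and fell by 1.21 ± 0.27 (edgeR adjusted p = 0.00407), and its relative Srd5a1 fell by 0.87 ± 0.18 (edgeR adjusted p = 0.0014) and rose by 0.66 ± 0.18 (edgeR adjusted p = 0.0114). Abcb1b, a drug and steroid efflux pump gene, rose by 2.61 ± 0.40 (edgeR adjusted p = 0.000152) and fell by 2.43 ± 0.39 (edgeR adjusted p = 0.000486). Nr5a2, the factor LRH-1 that drives steroid synthesis in the gut, rose by 0.49 ± 0.14 in FL-shGFP against NL-shGFP (edgeR adjusted p = 0.0113) and did not pass in FL-shAlpl against FL-shGFP (-0.02, edgeR adjusted p = 0.934).

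The aldosterone-regulated genes of sodium uptake, the arm served by Nr3c2, were mostly higher in FL-shGFP. Of 11, 9 rose, 1 fell and 1 did not pass in FL-shGFP against NL-shGFP (median 0.72), where 25.1% of all genes were higher. In FL-shAlpl against FL-shGFP, 8 fell, 0 rose and 3 did not pass (median -0.75), where 17.9% of all genes were lower. The 9 became 7 with NL-shGFP replicates 3 and 4 summed and 6 with replicates 1 and 2 summed as well, and the 1 that fell became 0 with library totals alone and without any 1 of NL-shGFP replicates 1, 2, 4 and 5 and FL-shGFP replicates 1, 3 and 4. Of the same 11, 3 rose, 3 fell and 5 did not pass in FL-shAlpl against NL-shGFP, where 9.31% of all genes were higher and 8.12% lower. The 3 that rose became 1 without any 1 of NL-shGFP replicates 2, 3 and 4 and FL-shAlpl replicates 2 and 5, and with NL-shGFP replicates 3 and 4 summed. Scnn1g, the gamma subunit gene of the epithelial sodium channel, averaged 0.277 ± 0.163 CPM in FL-shAlpl, 12.4 ± 5.92 CPM in FL-shGFP and 0.634 ± 0.266 CPM in NL-shGFP. It fell by 5.47 ± 0.46 in FL-shAlpl against FL-shGFP (edgeR adjusted p = 2e-05). Scnn1b, the beta subunit gene, fell by 1.76 ± 0.19 in FL-shAlpl against FL-shGFP (edgeR adjusted p = 4.38e-05) and by 1.26 ± 0.18 in FL-shAlpl against NL-shGFP (edgeR adjusted p = 0.00043). Sgk1 stands in this list and in the glucocorticoid-induced list. The summed colonocyte markers given with Nr3c2 were highest in FL-shGFP too, where Car4 had the highest mean of them. The sum averaged 2527 CPM in FL-shAlpl and 1571 CPM in NL-shGFP. Each of these markers but Krt20 averaged more in FL-shAlpl than in NL-shGFP. The part of these cells in the values of the sodium genes was not tested.

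Inflammatory genes that glucocorticoids are known to repress mostly did not pass in FL-shGFP against NL-shGFP and were mostly lower in FL-shAlpl than in FL-shGFP. Of 14 tested, 4 rose, 1 fell and 9 did not pass in FL-shGFP against NL-shGFP (median -0.01). The 4 that rose lie near the share of all genes, 25.1%. In FL-shAlpl against FL-shGFP, 9 fell, 1 rose and 4 did not pass (median -1.74), where 17.9% of all genes were lower. In FL-shAlpl against NL-shGFP, 7 fell, 0 rose and 7 did not pass (median -1.31), where 8.12% of all genes were lower. The 7 became 3 without replicate 2 of NL-shGFP or 5 of FL-shAlpl, 4 without replicate 1 of NL-shGFP or 2 or 3 of FL-shAlpl, and 0 with NL-shGFP replicates 1 and 2, and 3 and 4, summed. Vcam1, an adhesion molecule gene, rose by 3.30 ± 0.53 in FL-shGFP against NL-shGFP (edgeR adjusted p = 0.000265) and fell by 2.82 ± 0.52 in FL-shAlpl against FL-shGFP (edgeR adjusted p = 0.00127). Cxcl10, an interferon-induced chemokine gene, fell by 4.34 ± 0.82 in FL-shGFP against NL-shGFP (edgeR adjusted p = 0.000791). Tnf did not pass in any comparison. The neutrophil and lymphocyte markers given above were lower in FL-shAlpl than in FL-shGFP, as most of this list was, and their part was not tested. Between FL-shAlpl and NL-shGFP, where 7 of the list fell, the immune marker sums differed in direction. Neutrophil markers averaged 186 CPM in FL-shAlpl and 162 CPM in NL-shGFP, and B and plasma cell markers 18.3 and 4.57 CPM. T and NK cell markers averaged 9.56 and 17.1 CPM, myeloid cell markers 206 and 226 CPM, and markers shared by all leukocytes 63.8 and 97.2 CPM. Of the neutrophil markers, Ly6g averaged 119.7 and 37.3 CPM and S100a9 38.4 and 79.2 CPM. Their part was not tested here either.

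Relatives of the 9 genes by family were listed without regard to hormone response, and 25.1% of all genes were higher and 21.6% lower in FL-shGFP against NL-shGFP. Of 9 dual-specificity phosphatase genes other than Dusp1, 3 rose, 0 fell and 6 did not pass in FL-shGFP against NL-shGFP, and 4 fell, 0 rose and 5 did not pass in FL-shAlpl against FL-shGFP. The 3 became 5 with library totals alone or without FL-shGFP replicate 5, and the 4 became 2 without FL-shGFP replicate 1 or 4 or FL-shAlpl replicate 1. Dusp6, a phosphatase gene for ERK, rose by 0.86 ± 0.30 (edgeR adjusted p = 0.0308) and fell by 1.16 ± 0.31 (edgeR adjusted p = 0.00998) in these comparisons. Of 12 TSC22, BTB zinc finger, Klf and Fkbp relatives, 4 rose, 2 fell and 6 did not pass in FL-shGFP against NL-shGFP, and 2 fell, 0 rose and 10 did not pass in FL-shAlpl against FL-shGFP, and these 2 became 1 without FL-shGFP replicate 3 or 4 or FL-shAlpl replicate 1. Tsc22d1 fell by 0.68 ± 0.16 (edgeR adjusted p = 0.00323) in FL-shGFP against NL-shGFP, against the direction of Tsc22d3, and Klf13 rose by 0.61 ± 0.09 (edgeR adjusted p = 8.43e-05). Of 10 tested dehydrogenase relatives of Hsd11b1 and Hsd11b2, 7 rose, 2 fell and 1 did not pass in FL-shGFP against NL-shGFP, and 4 fell, 2 rose and 4 did not pass in FL-shAlpl against FL-shGFP. The 2 falls of the first comparison became 0 with library totals alone and 1 without any 1 of NL-shGFP replicates 2 and 4 and FL-shGFP replicates 1 and 2. Rdh16, a retinol and steroid dehydrogenase gene, rose by 3.59 ± 0.41 (edgeR adjusted p = 2.73e-05) and fell by 1.67 ± 0.38 (edgeR adjusted p = 0.0046).

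The genes whose pattern was closest to each of the 9 were sought among 12087 genes, by the root-mean-square difference of centred log2 CPM over the 15 libraries. For Nr3c1 it was Pnpla8 (0.0896), for Nr3c2 Adgrg7 (0.118), for Klf9 Cd2ap (0.113), for Tsc22d3 Entpd8 (0.131) and for Hsd11b2 Tmc8 (0.174). For Dusp1 it was Trim40 (0.207) with Sgk2, a relative of Sgk1, in the third place (0.261), and for Fkbp5 Slc22a21 (0.224). The low genes had no close match, with 0.516 for Hsd11b1 (Emb) and 0.753 for Zbtb16 (Plat). The 15 libraries share their groups and their depth, so closeness here describes the libraries and carries no test. None of the 9 genes was among the 3 closest of another.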

How the data were processed

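The authors deposited integer counts per gene and FPKM values for 15 libraries. The labels' protocols name column purification of RNA and mRNA enrichment. HISAT2 is named in the submitters' processing notes, while its version, the counter, the build and the strand setting were not given in the sources used here. Each deposited FPKM value was the count divided by library total and gene length (relative difference at most 0.001 in 100% of genes). Counts from 1 to 12 were even in 72.4% to 77.2% of cases per library. Of 32939 gene IDs, 32241 matched a symbol and 698 did not.

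Counts of 17404 genes that passed filterByExpr were fitted in a single edgeR 4.0.16 model (quasi-likelihood, robust, TMM factors, R 4.3.3) of 3 group means, with 12 residual degrees of freedom and a common biological coefficient of variation of 30.2%. Tests were two-sided with Benjamini-Hochberg adjustment over all genes tested, at 0.05. A standard error is the fold change over the root of F. No label states whether replicates were separate mice, so p-values measure the spread between samples, which may be technical. The 9 genes, the 11 lists (172 genes) and the tests were chosen with earlier results of these data known. The text names the 9 genes, part of up to 4 passing members of each list and comparison (by p) with the 2 most abundant that missed the threshold, and the closest genes in pattern. Cebpb, Cyp11a1, Cyp11b1, Cyp11b2, Cyp21a1, Glul, Hsd3b1, Hspa1a, Hspa1b, Lpin1, Nr5a2, Rgcc, Sgk1, Smarca4, Tnf, Tsc22d1 and Txnip are also named in a comparison where this rule does not reach them, chosen after their values were seen.

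The alternatives were RLE factors, library totals alone, no filter, at least 1 CPM in 5 samples, DESeq2 1.42.0, voom and trend fits in limma 3.58.1 (the trend fits on FPKM with 1 or 0.1 added before log2), only the groups compared, a replicate block, close NL-shGFP libraries summed, and each library left out. The code was tested on simulated data. Figures used Python 3.11.15 and matplotlib 3.10.9.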

Additional observations from a re-analysis of the deposited data

Results flagged for a closer look

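In NL-shGFP, Hsd11b2 had 245 CPM in replicate 5 against 190 CPM in the nearest other library, a gap of 0.772 of the range of the group, above the limit of 0.710 for 5 samples. In the same group, Nr3c1 had 78.5 CPM in replicate 1 against 68.3 CPM in the nearest library, a gap of 0.742. These were 2 of 27 combinations of gene and group, and chance gives about 1 in 20. No cause was tested.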

How the results depend on the processing

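Over 28 settings the 9 genes gave 753 values, of which 722 kept their direction and their side of the threshold, 19 lost the call, 4 gained it and 8 changed sign. The 8 were all Hsd11b1 in FL-shAlpl against NL-shGFP (-0.12, and -0.34 to 0.15 with 1 library left out), at 0.0182 with library totals alone, 0.00207 on log2(FPKM + 1), 0.0228 on log2(FPKM + 0.1), 0.0708 with a replicate block, 0.0366 with NL-shGFP replicates 3 and 4 summed, 0.0168 without NL-shGFP replicate 3, 0.151 without NL-shGFP replicate 4 and 0.110 without FL-shAlpl replicate 3. The 2 genes called in FL-shAlpl against NL-shGFP became 1 with the replicate block, with both close NL-shGFP pairs summed and with replicates 3 and 4 summed, where Klf9 lost its call, and the cause was not tested. Leaving out 1 library gave 7 to 9 calls in FL-shGFP against NL-shGFP, 6 in every case in FL-shAlpl against FL-shGFP and 1 to 2 in FL-shAlpl against NL-shGFP. Over all genes it gave 6841 to 8816, 4635 to 7158 and 1979 to 3523 calls in these comparisons, against 8128, 6261 and 3035, and with both close pairs summed the last was 1340. Zbtb16 in FL-shAlpl against NL-shGFP lost its call on log2(FPKM + 1) alone (0.41), where the pseudocount exceeds its level. Keeping genes with at least 1 CPM in 5 samples left Hsd11b1 out. No library pair was close enough to be merged, so keeping all 15 apart is the same as the values reported. The NL-shGFP replicates 3 and 4 sum was chosen after seeing the data.

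Replicate numbers did not pair the libraries: of 15 correlations between same-numbered libraries 3 were over 0.1 (-0.353 to 0.326). With the replicate block, 7295, 5074 and 2457 genes and 9, 6 and 1 of the 9 genes were called in the 3 comparisons. Depth limits Hsd11b1, at 4 to 130 counts per library.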

Other observations

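Of the steroid synthesis genes that failed the filter on low counts, and so were not tested, Cyp11b1, Cyp11b2 and Hsd3b1 held more counts in FL-shGFP than elsewhere and the others did not. Cyp11b1, the gene of the last step of corticosterone synthesis, had 0, 0, 6, 0 and 0 counts in FL-shAlpl replicates 1 to 5, 19, 7, 27, 13 and 15 counts in FL-shGFP, and 2, 2, 2, 2 and 0 counts in NL-shGFP. Cyp11b2, the aldosterone synthase gene, had 0 counts in each FL-shAlpl library, 29, 10, 32, 23 and 1 counts in FL-shGFP, and 0, 0, 0, 2 and 0 counts in NL-shGFP. FL-shGFP replicate 5 lay within the range of its group for Cyp11b1 and was near 0 for Cyp11b2. These 2 genes are close copies, so their reads may be split between them. Hsd3b1, an earlier enzyme of the pathway, had 22 counts in all in FL-shAlpl, 74 in FL-shGFP and 6 in NL-shGFP. Cyp11a1, the first enzyme, had its highest counts in FL-shAlpl (79 in all, 45 of them in replicate 3), against 32 in FL-shGFP and 22 in NL-shGFP, and Cyp21a1, which corticosterone synthesis also needs, had 0 counts in FL-shAlpl, 0 in FL-shGFP and 10 in NL-shGFP. Summed adrenal cortex markers were 1.65 to 2.60 CPM in FL-shAlpl, 2.08 to 3.94 CPM in FL-shGFP and 1.84 to 2.52 CPM in NL-shGFP.

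Clock genes, of which some take timing from glucocorticoids, were mostly higher in FL-shGFP. Of 17 tested, 12 rose, 0 fell and 5 did not pass in FL-shGFP against NL-shGFP (median 1.55), where 25.1% of all genes were higher. In FL-shAlpl against FL-shGFP, 10 fell, 1 rose and 6 did not pass (median -0.73), where 17.9% of all genes were lower. In FL-shAlpl against NL-shGFP, 7 rose, 1 fell and 9 did not pass, where 9.31% of all genes were higher. The output factor gene Tef rose by 2.63 ± 0.19 (edgeR adjusted p = 1.03e-06) and Cry2, a repressor gene of the clock, by 2.14 ± 0.19 (edgeR adjusted p = 4.06e-06) in FL-shGFP against NL-shGFP. The core activator genes Arntl (-0.00, edgeR adjusted p = 0.992) and Clock (-0.04, edgeR adjusted p = 0.789) did not pass there. Sampling times were not given in the labels. Of 16 immediate early genes, which rise with tissue handling as well as with signals that induce Dusp1, 5 rose, 0 fell and 11 did not pass in FL-shGFP against NL-shGFP (median 0.61). The 5 that rose lie near the share of all genes, 25.1%. In FL-shAlpl against FL-shGFP, 6 fell, 0 rose and 10 did not pass (median -0.78), where 17.9% of all genes were lower. In FL-shAlpl against NL-shGFP, 2 fell, 0 rose and 14 did not pass, where 8.12% of all genes were lower. The 2 became 0 with both close NL-shGFP pairs summed and 1 without NL-shGFP replicate 1, 2 or 4. Fos did not pass in FL-shGFP against NL-shGFP (0.15, edgeR adjusted p = 0.742).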
